A study of Rattus norvegicus with 13 samples.

Results

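Solute carriers are the membrane proteins that move ions, sugars, amino acids, organic acids and metals across cell and organelle membranes. The genes described here are those with a symbol that starts with Slc and a digit or with Slco, taken from probe sets with exactly 1 gene symbol. They numbered 240 genes, in 49 families and on 300 probe sets, of 10412 genes with 1 symbol on the Affymetrix Rat 230A array. Where a gene had several probe sets, which was the case for 47 genes, the probe set with the highest mean log2 signal over all 13 arrays stood for the gene. Of the 240 genes, 2 encode no carrier although their symbols fit the rule, Slc4a1ap and Slc7a6os. A filter on low signal kept 197 of the 240 genes for testing, and the other 43 are described separately.

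The study compared glomeruli prepared in different ways from the kidneys of Lewis-Hsd rats aged 18 weeks. The rats had a regular diet and no treatment, and no transgene is named for any group. An agent appears only in the extraction text, which mentions anti-Thy1.1 rats and does not match the other fields. In the group called sieved here (titled iron, n = 4), glomeruli loaded with iron oxide by perfusion were collected by sieve and magnet, and their RNA was not amplified. The protocol gives their purity as over 99% by phase contrast microscopy. In the groups LCM800 (n = 5) and LCM20 (n = 4), glomeruli were cut from 10 µm sections of the unperfused kidney by laser capture microdissection, and the RNA went through 2 rounds of amplification. The protocol text names about 800 cross-sections for both groups, and the meaning of the 20 in the titles is not stated. Mode of isolation and amplification changed together, so they cannot be told apart. Each array is labelled a biological replicate, but the animal behind it is not given, and p-values measure the spread between these arrays.

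In the kidney, carriers divide the work of reabsorption along the nephron. The proximal tubule takes back filtered glucose, phosphate, amino acids, bicarbonate and citric acid cycle intermediates and secretes organic anions and cations, the thick ascending limb and the distal tubule take back salt through cation-chloride cotransporters, and the glomerulus itself filters and does not reabsorb. Mitochondrial carriers, zinc and copper carriers and nucleotide-sugar carriers of the Golgi work in every cell type. A group of carriers loads or clears neurotransmitters and is best known from neurons.

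Some arrays stood apart from the rest of their group. Over all tested probe sets, LCM800 replicates 4 and 5 correlated with each other at r = 0.937 and with LCM800 replicates 1 to 3 at 0.718 to 0.812, while their correlation with the LCM20 arrays was 0.855 to 0.907. Sieved replicate 3 correlated with the other sieved arrays at 0.873 to 0.897, against 0.964 to 0.984 among those 3. All signals had been scaled, and the median signal of an array lay between 236.4 and 320.8 intensity units. Marker genes of other cell types also differed between the groups. The summed signal of 26 proximal tubule marker genes that are no carriers was 125863 to 221920 in sieved arrays, 42616 to 68033 in LCM800 arrays and 32537 to 75294 in LCM20 arrays. The summed signal of 14 podocyte markers, which define the glomerulus, was 29682 to 61540, 46506 to 80188 and 40280 to 59051. The podocyte sums overlap through sieved replicate 3 alone (61540), and the other sieved arrays, at 40036, 32745 and 29682, had sums below every microdissected array. The mean log2 over the 14 markers overlapped further. There sieved replicate 1 (10.83) also lay above LCM800 replicate 4 (10.79) and LCM20 replicate 3 (10.64), while sieved replicates 2 (10.50) and 4 (10.44) lay below every microdissected array. Single podocyte markers moved both ways: for LCM800 5 of 14 rose and 6 fell (range of differences -2.31 to 2.68), and for LCM20 5 rose and 5 fell. No marker of these 2 lists was at 0 or stayed under the pseudocount of 65.3 in every array of a group.

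Carriers were more often lower and less often higher in microdissected than in sieved glomeruli, set beside all genes. Between LCM800 and sieved, 77 of 197 tested carriers (39.1%) fell and 47 (23.9%) rose in limma at an adjusted p under 0.05, while over all 8081 tested genes 19.8% fell and 32.3% rose. The median difference in log2(signal + pseudocount) was -0.32 over the carriers (quartiles -1.28 and 0.54) and 0.22 over all genes (quartiles -0.48 and 0.77). Of the carriers that passed, 65 fell and 16 rose at least 2-fold, and over all genes 13.6% and 16.0% did. The ranges of the arrays did not overlap for 105 carriers (53.3%), against 43.1% of all genes.

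Between LCM20 and sieved, 79 carriers (40.1%) fell and 32 (16.2%) rose, while over all genes 18.5% fell and 27.0% rose. The median was -0.33 over the carriers (quartiles -1.58 and 0.40) and 0.18 over all genes. The ranges did not overlap for 96 carriers (48.7%), against 44.0% of all genes. Both comparisons use the same 4 sieved arrays, and their calls are therefore only set side by side: 68 carriers fell in both, 30 rose in both, and none rose in one and fell in the other. Without LCM800 replicates 4 and 5 the counts for LCM800 were 75 lower and 51 higher, without replicates 1 to 3 they were 71 and 34, and without sieved replicate 3 they were 83 and 41. Without sieved replicate 3 the counts for LCM20 were 82 lower and 28 higher.

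**Figure D1:**
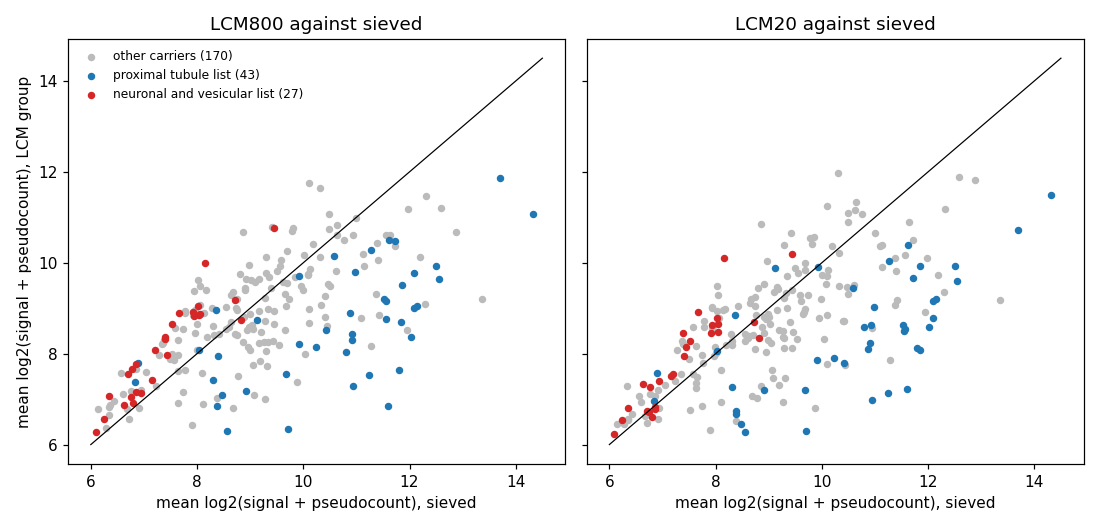
Mean log2(signal + pseudocount) of each of the 240 carriers in sieved arrays (x axis) against LCM800 (left) and LCM20 (right) arrays (y axis), with 1 point per gene and the line of equal level. The 43 genes of the proximal tubule list lie mostly below the line at the bright end, and most of the 27 genes of the neuronal and vesicular list lie above it at the dim end.

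Carriers of the proximal tubule mostly fell. From a list of 43 such carriers, 37 passed the filter; 31 fell and 1 rose between LCM800 and sieved, with a median of -2.32. Between LCM20 and sieved 33 of the 37 fell and none rose, with 34 at an unadjusted p under 0.05 in limma and a median of -2.57. Among the 160 tested carriers outside this list, 46 fell and 46 rose for LCM800 (median -0.02), and 46 fell and 32 rose for LCM20 (median -0.13). Over all genes 19.8% fell and 32.3% rose for LCM800. The carriers outside the list still include large falls, such as Slc7a12 (-4.16 for LCM800) and Slc25a10 (-3.11), both described below. Over the named array subsets (without LCM800 replicates 4 and 5, without LCM800 replicates 1 to 3, and without sieved replicate 3) the list had 30 to 32 falls for LCM800. The proximal tubule markers that are no carriers moved alongside: 24 of 26 fell and 2 rose for LCM800 (median -2.47), and 23 fell and none rose for LCM20 (median -2.63). In these bulk samples, fewer cells of a type and less RNA per cell cannot be told apart, and the part of tubule RNA in the carrier values was not tested.

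Slc34a1 encodes the sodium-phosphate cotransporter that recovers most filtered phosphate at the brush border. Its signals were 14740, 14823, 9653 and 14522 in sieved arrays, 6154, 4532, 5379, 1978 and 2279 in LCM800 arrays, and 1871, 1031, 1914 and 1830 in LCM20 arrays. The sieved arrays did not overlap with the others, and LCM800 replicates 4 and 5 lay close to the LCM20 arrays. Differences are given below on the scale of log2(signal + pseudocount) with their standard error (SE), first LCM800 minus sieved and then LCM20 minus sieved. The gene fell, with differences of -1.82 ± 0.33 in LCM800 (limma, adjusted p = 0.000351) and at -2.98 ± 0.35 in LCM20 (adjusted p = 1.1e-05), and a further tested probe set of the gene gave differences of -2.34 and -3.48. A second phosphate carrier, the widely expressed Slc20a2, was the only tested member of the proximal list that rose, at 0.60 ± 0.19 in LCM800 (adjusted p = 0.0167), and its value for LCM20 was 0.48 (adjusted p = 0.066). That call was lost without sieved replicate 3 (0.47, adjusted p = 0.0595), and the mean of its probe sets gave -0.31, since its dimmer probe set read 321, 427, 137 and 301 in sieved arrays and 57.3 to 119 in LCM800 arrays.

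The promoters of the carriers were searched for GTTAAT, the letters of a half-site of HNF1, a factor known for driving proximal tubule genes, on both strands of the 250 bases before each start in the RefSeq table (build GRCr8). Promoter entries were found for 204 of the 240 carriers and for 39 of the 43 genes of the proximal list. The letters occurred in 5 of 41 entries of the proximal list (12.2%), in 15 of 218 carrier entries (6.88%) and in 6.45% of all 33469 promoters of the table. The 2 windows below were chosen as examples because both genes hold the letters and are among the carriers that fell, so they are no evidence of a relation. Slc10a2, a bile acid carrier of the same list named here after its values were seen, holds the letters too and did not pass (0.05, adjusted p = 0.879, and 0.02, adjusted p = 0.948, in limma). The matches are in capitals (ATTAAC is the same site on the other strand). The window of Slc34a1 lies at chr17:9238984-9239233 on the minus strand, with matches that start 147 and 120 bases before the gene's start. The window of Slc22a8, an organic anion transporter, lies at chr1:214927034-214927283 on the plus strand, with a match 93 bases before the start.
Slc34a1: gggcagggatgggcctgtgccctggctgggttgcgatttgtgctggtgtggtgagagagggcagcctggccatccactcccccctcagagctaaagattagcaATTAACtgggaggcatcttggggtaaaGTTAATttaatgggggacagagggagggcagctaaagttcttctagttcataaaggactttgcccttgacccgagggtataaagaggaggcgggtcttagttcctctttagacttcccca
Slc22a8: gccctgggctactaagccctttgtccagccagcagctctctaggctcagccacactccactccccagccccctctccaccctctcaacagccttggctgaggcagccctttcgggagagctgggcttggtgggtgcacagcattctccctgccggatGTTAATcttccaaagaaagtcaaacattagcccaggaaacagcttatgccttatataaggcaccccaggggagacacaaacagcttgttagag
A match describes the letters of these windows and is no evidence of binding, and the share in the proximal list rests on 5 entries.

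Glucose leaves the filtrate through Slc5a2, the sodium-glucose cotransporter of the early proximal tubule, and leaves the cell through Slc2a2. Slc5a2 read 2585, 2621, 1366 and 3326 in sieved arrays, 121, 115, 321, 46.7 and 79.4 in LCM800 arrays, and 68.2, 115, 60.2 and 66.7 in LCM20 arrays. All microdissected arrays lay below the lowest sieved array by a wide margin, some of them near the pseudocount. Slc5a2 fell, with differences of -3.72 ± 0.32 in LCM800 (limma, adjusted p = 4.33e-07) and at -4.10 ± 0.33 in LCM20 (adjusted p = 5.09e-07). Slc2a2 read 903, 836, 468 and 995 in sieved arrays and 9.34 to 28.9 in every microdissected array, and these low values kept its mean under the filter. In the limma fit with no filter it fell, with differences of -3.36 ± 0.20 (adjusted p = 5.97e-08) and at -3.41 ± 0.21 (adjusted p = 1.2e-07), and the pseudocount makes this smaller than the ratio of the signals. The other glucose carriers moved less. Slc5a1, the high-affinity cotransporter of the late proximal tubule, read 170 to 304 in sieved arrays, and fell, with differences of -0.89 ± 0.29 in LCM800 (adjusted p = 0.017) and at -1.03 ± 0.30 in LCM20 (adjusted p = 0.0116). The LCM800 call was lost at -0.81 when either sieved replicate 1 (adjusted p = 0.0545) or 2 (adjusted p = 0.0555) was left out. The general glucose carrier Slc2a1 had values of -0.63 ± 0.25 (adjusted p = 0.0467) and -0.70 ± 0.27 (adjusted p = 0.0435), calls that any of sieved replicates 1, 2 and 4 ended when left out, with values of -0.60, -0.52 and -0.53 for LCM800 and -0.66, -0.59 and -0.59 for LCM20. They also ended without LCM800 replicate 1, 3 or 4 (-0.58, -0.60 and -0.61) and without LCM20 replicate 2 or 4 (-0.53 and -0.63). The insulin-responsive carrier Slc2a4 did not pass in either comparison (-0.27, adjusted p = 0.312, and -0.30, adjusted p = 0.289). Slc2a3, the high-affinity glucose carrier best known from neurons, went the other way: from 104 to 158 in sieved arrays it rose to 238 to 425 in LCM800 arrays and 234 to 413 in LCM20 arrays, by 0.99 ± 0.21 for LCM800 (adjusted p = 0.00103), with an adjusted p of 0.00165 for LCM20, while a dimmer probe set of it gave 0.38 in both.

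**Figure D2:**
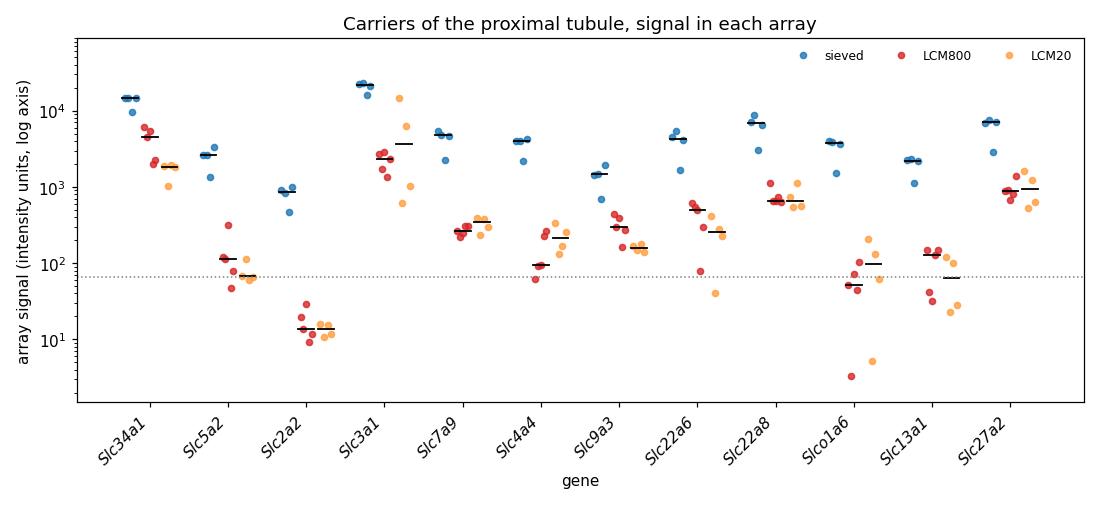
Signal of 12 carriers of the proximal tubule in each array, in intensity units on a log axis, with 1 point per array, a bar at the median of each group (sieved n = 4, LCM800 n = 5, LCM20 n = 4) and a dotted line at the pseudocount of 65.3. The sieved points lie above every microdissected point for each of the 12 genes.

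Cystine and basic amino acids are taken up by a dimer of Slc3a1 and Slc7a9, the pair mutated in cystinuria. Slc3a1 was the brightest carrier in sieved arrays, at 22154, 23180, 15941 and 21126, and read 2674, 1733, 2866, 1341 and 2288 in LCM800 arrays and 14567, 609, 6231 and 1032 in LCM20 arrays. The LCM20 arrays thus spread over a range wider than the gap between LCM800 and sieved, with replicates 1 and 3 high. The differences were -3.24 ± 0.65 in LCM800 (limma, adjusted p = 0.000751) and -2.83 ± 0.69 in LCM20 (adjusted p = 0.0036). Its partner Slc7a9 read 2238 to 5464 in sieved arrays and was more even across microdissected arrays, with 221 to 304 in LCM800 and 236 to 387 in LCM20. Slc7a9 fell, with differences of -3.64 ± 0.24 (adjusted p = 6.73e-08) and -3.42 ± 0.26 (adjusted p = 2.86e-07). The basolateral side works through Slc7a7 with Slc3a2. Slc7a7 read 1892 to 3921 in sieved arrays, 390 to 726 in LCM800 arrays and 251 to 413 in LCM20 arrays, falling with differences of -2.40 ± 0.24 (adjusted p = 1.62e-06) and -3.02 ± 0.25 (adjusted p = 5.59e-07). The heavy chain Slc3a2, which also pairs with light chains in many other cells, fell less, with differences of -1.25 ± 0.23 (adjusted p = 0.000351) and -2.04 ± 0.24 (adjusted p = 1.1e-05). Slc7a12, an amino acid carrier of the same family, read 6873 to 13194 in sieved arrays and 192 to 1807 in microdissected arrays, and fell, with differences of -4.16 ± 0.45 and -4.20 ± 0.48 (adjusted p = 3.9e-06 and 8.28e-06). Of the 28 tested amino acid and neurotransmitter carriers, 14 fell and 9 rose for LCM800 (median -0.48), and 14 fell and 6 rose for LCM20 (median -0.57). Over all genes 19.8% fell and 32.3% rose for LCM800, and 18.5% fell and 27.0% rose for LCM20. The rises of the class lie near these shares.

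Bicarbonate recovery depends on Slc9a3, which secretes protons at the brush border, and on Slc4a4, which exports bicarbonate with sodium to the blood side. Slc4a4 read 4033, 4014, 2210 and 4198 in sieved arrays, 62.3, 91.0, 95.2, 227 and 261 in LCM800 arrays, and 336, 133, 169 and 254 in LCM20 arrays. Within LCM800, replicates 4 and 5 were the high ones here, the reverse of Slc34a1. The difference of -4.17 ± 0.31 in LCM800 (limma, adjusted p = 1.37e-07) and -3.68 ± 0.33 in LCM20 (adjusted p = 9.07e-07) was the most negative among the acid-base and anion carriers. Slc9a3 read 686 to 1959 in sieved arrays, 163 to 439 in LCM800 arrays and 141 to 177 in LCM20 arrays, and fell, with differences of -1.91 ± 0.28 (adjusted p = 4.47e-05) and -2.62 ± 0.29 (adjusted p = 6.54e-06). Slc4a1, the anion exchanger of red cells and of the acid-secreting cells of the collecting duct, read 345 to 1784 in sieved arrays, 260 to 385 in LCM800 arrays and 88.2 to 269 in LCM20 arrays. Sieved replicate 3, the lowest sieved array, overlapped with LCM800 here. Slc4a1 fell, with differences of -1.43 ± 0.36 (adjusted p = 0.00374) and -2.32 ± 0.38 (adjusted p = 0.000169). Of 5 tested erythroid and platelet marker genes 3 rose for LCM800, the 3 with an unadjusted p under 0.05 in limma, and none fell. They were the erythroid Alas2 and the platelet genes Pf4 and Ppbp, named here after their values were seen. For LCM20 2 rose and none fell, and over all genes 32.3% rose for LCM800 and 27.0% for LCM20. An exception in the class was Slc9a5, a sodium-proton exchanger known from brain, which rose from 96.8 to 111 in sieved arrays to 143 to 452 and 172 to 357, by 0.98 ± 0.25 (adjusted p = 0.0043) and 1.06 ± 0.26 (adjusted p = 0.00448). In the class as a whole 5 of 12 fell and 2 rose for LCM800, and 6 fell and 1 rose for LCM20. Beside this, 19.8% of all genes fell and 32.3% rose for LCM800, and 18.5% and 27.0% for LCM20.

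Organic anions and cations are secreted by the Slc22 family, and larger organic anions are moved by the Slco family. Of 14 Slc22 genes on the array 12 passed the filter. Of these 12, 8 fell for LCM800 (median -2.33), beside 19.8% of all genes. For LCM20 10 fell (median -2.72), beside 18.5% of all genes. In the limma fit with no filter, the 2 Slc22 genes under the filter, named here after their values were seen, went different ways for LCM800. Slc22a4 had -1.40 (adjusted p = 0.00337) and Slc22a3 had 0.80 (adjusted p = 0.035). Slc22a6, the basolateral carrier for para-aminohippurate, read 4444, 5377, 1659 and 4153 in sieved arrays, 615, 546, 503, 78.5 and 302 in LCM800 arrays, and 421, 40.9, 277 and 230 in LCM20 arrays. Its differences were -3.14 ± 0.49 (limma, adjusted p = 8.93e-05) and -3.77 ± 0.52 (adjusted p = 4.04e-05). Slc22a8, whose promoter window is printed above, read 7093, 8827, 3026 and 6483, then 1122, 646, 644, 730 and 638, then 729, 544, 1122 and 561 in the 3 groups, and fell, with differences of -2.90 ± 0.30 (adjusted p = 2.83e-06) and -2.95 ± 0.32 (adjusted p = 5.36e-06). The cation carrier Slc22a2 fell, with differences of -1.98 ± 0.44 (adjusted p = 0.00151) and -2.77 ± 0.46 (adjusted p = 0.000201). Slc17a1, a carrier of urate and other anions at the brush border, fell, with differences of -2.76 ± 0.38 (adjusted p = 3.16e-05) and -2.21 ± 0.40 (adjusted p = 0.000422).

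The Slco family was split. Slco1a6, an organic anion carrier of the kidney, had the largest fall of all tested carriers, from 3954, 3846, 1530 and 3669 in sieved arrays to 52.1, 3.31, 71.8, 43.8 and 104 in LCM800 arrays and 209, 5.19, 133 and 61.9 in LCM20 arrays, with differences of -4.75 ± 0.38 (limma, adjusted p = 2.66e-07) and -4.39 ± 0.40 (adjusted p = 1.06e-06). Slco2b1, a carrier found in vessels and many epithelia, rose from 104 to 199 in sieved arrays to 344 to 583 and 304 to 467, by 1.15 ± 0.20 (adjusted p = 0.000255) and 0.93 ± 0.21 (adjusted p = 0.00236). Slco1a1 stayed under the filter, at 30.2 to 78.5 in sieved arrays and 65.1 to 255 in microdissected ones. In the limma fit with no filter it rose for LCM800 by 0.89 (adjusted p = 0.0105), as did Slco1b2 by 1.01 (adjusted p = 0.0209), named here after its values were seen, and for LCM20 neither passed (adjusted p = 0.0584 and 0.266). Of 9 tested Slco genes, 4 rose and 2 fell for LCM800, and 2 rose and 2 fell for LCM20. With so few genes these counts do not stand apart from all genes, of which 32.3% rose and 19.8% fell for LCM800. For LCM20 the shares over all genes were 27.0% and 18.5%. Over all 28 tested organic ion carriers, 13 fell and 6 rose for LCM800 (median -0.40), and 15 fell and 3 rose for LCM20 (median -0.95).

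Carriers of carboxylates and sulphate had the lowest median of the classes with at least 9 tested genes, -2.27 for LCM800 and -2.35 for LCM20. Slc13a1, the sodium-sulphate cotransporter of the proximal brush border, read 2245, 2336, 1133 and 2173 in sieved arrays, 149, 42.4, 32.1, 129 and 149 in LCM800 arrays, and 122, 22.9, 101 and 28.5 in LCM20 arrays. It fell, with differences of -3.65 ± 0.32 (limma, adjusted p = 5.7e-07) and -3.95 ± 0.34 (adjusted p = 7.45e-07). The dicarboxylate carrier Slc13a3, which serves organic anion secretion from the blood side, fell, with differences of -3.10 ± 0.39 (adjusted p = 1.36e-05) and -3.31 ± 0.41 (adjusted p = 1.7e-05). Slc16a3, the lactate exporter of glycolytic cells, went up for LCM800 from 132 to 242 in sieved arrays to 804, 728, 261, 321 and 270. Its value was 0.98 ± 0.32 (adjusted p = 0.0166), which did not pass once sieved replicate 4 was left out (0.87, adjusted p = 0.0556). Without LCM800 replicates 1 to 3 it was 0.53 (adjusted p = 0.158), and for LCM20 it was 0.64 (adjusted p = 0.13).

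Fatty acid carriers divided in the same way. Slc27a2, a fatty acid transporter and acyl-CoA synthetase abundant in proximal tubule and liver, fell from 6969, 7467, 2909 and 7122 to 665 to 1403 in LCM800 and 533 to 1621 in LCM20, with differences of -2.58 ± 0.35 (limma, adjusted p = 2.41e-05) and -2.57 ± 0.36 (adjusted p = 5.31e-05). Slc27a4, a broadly expressed member of the family, rose from 1164, 1246, 764 and 1014 to 3822, 5382, 3414, 2317 and 2834 and to 1958, 1994, 3524 and 2208. The rise was 1.67 ± 0.26 (adjusted p = 0.000104) and 1.14 ± 0.28 (adjusted p = 0.00382), with no overlap between sieved and microdissected arrays. Slc23a1, the sodium-ascorbate cotransporter that recovers vitamin C, fell from 2606, 2414, 821 and 2336 to 187 to 408 and 195 to 524, with differences of -2.49 ± 0.34 (adjusted p = 3.09e-05) and -2.28 ± 0.36 (adjusted p = 0.000141).

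**Figure D3:**
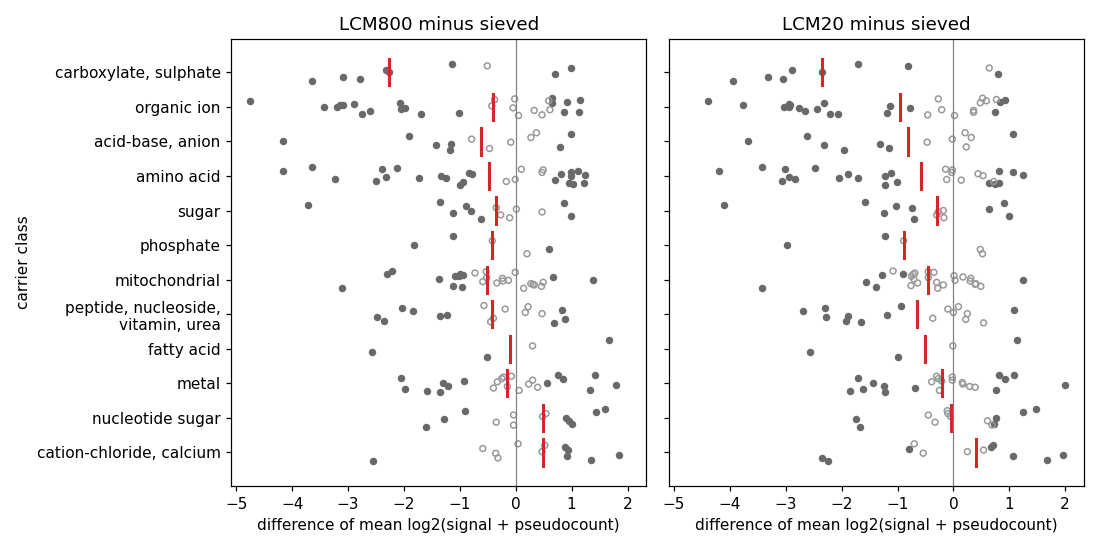
Difference in mean log2(signal + pseudocount) of tested carriers by carrier class, LCM800 minus sieved (left) and LCM20 minus sieved (right), with 1 point per gene, filled where the gene passed limma at an adjusted p under 0.05 and open where it did not, and a red bar at the median of the class. For LCM800, the carboxylate, organic ion, acid-base, amino acid, sugar and mitochondrial classes each hold a gene below -3, and the cation-chloride and calcium class has a median of 0.50 and 0.40.

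The carriers of the later nephron moved less as a list. Of 13 such carriers 11 were tested, and 2 fell and 3 rose for LCM800 (median -0.08), while 5 fell and 2 rose for LCM20 (median -0.30). Beside this, 19.8% of all genes fell and 32.3% rose for LCM800, and 18.5% and 27.0% for LCM20. Slc12a1, the furosemide-sensitive cotransporter of the thick ascending limb, read 3776, 3121, 1448 and 3008 in sieved arrays, 230, 146, 271, 644 and 1398 in LCM800 arrays, and 1550, 414, 315 and 309 in LCM20 arrays. It fell, with differences of -2.56 ± 0.53 (limma, adjusted p = 0.000925) and -2.25 ± 0.56 (adjusted p = 0.00411), and the value for LCM800 without its replicates 1 to 3 was -1.43 (adjusted p = 0.0452). Slc12a3 is the thiazide-sensitive cotransporter of the distal convoluted tubule. Its signals were 2185, 2350, 725 and 3361 in sieved arrays, 2292, 2575, 1142, 835 and 1360 in LCM800 arrays, and 265, 123, 298 and 868 in LCM20 arrays. Both groups overlapped with sieved, whose replicate 3 was low. LCM800 did not pass (-0.32 ± 0.47, adjusted p = 0.588), LCM20 fell, with a difference of -2.36 ± 0.49 (adjusted p = 0.00124), and the difference of LCM20 from LCM800 did not pass (-2.05, adjusted p = 0.0748). The markers of loop, distal tubule and collecting duct that are no carriers fell in 8 of 17 tested genes and rose in 1 (Aqp2, named here after its values were seen) for LCM800, and fell in 11 of 17 for LCM20, with medians of -0.90 and -1.06, and their part in these values was not tested.

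Of the 7 tested Slc12 genes, 3 rose in both comparisons, Slc12a2, Slc12a5 and Slc12a4 (the last named here after its values were seen). Slc12a2, the basolateral form that loads cells with chloride, read 1140, 1000, 1798 and 1017 in sieved arrays, 3161, 2455, 3009, 4009 and 3266 in LCM800 arrays, and 3803, 4265, 4170 and 3728 in LCM20 arrays. The sieved arrays were all below the others, and the rise was 1.34 ± 0.22 (limma, adjusted p = 0.00013) and 1.67 ± 0.23 (adjusted p = 4.13e-05). Slc12a5, the potassium-chloride cotransporter that lowers chloride in neurons, read 204, 195, 280 and 203 in sieved arrays, 1056, 855, 721, 1046 and 1168 in LCM800 arrays, and 1259, 1289, 1050 and 681 in LCM20 arrays. Its rise of 1.85 ± 0.22 (adjusted p = 7.21e-06) was the largest of all carriers for LCM800, and that for LCM20 was 1.96 ± 0.23 (adjusted p = 9.74e-06).

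The carriers known from neurons and vesicles rose where they changed. Of 27 on the array only 15 passed the filter; 12 of these rose and none fell for LCM800, with 13 at an unadjusted p under 0.05 in limma and a median of 0.93. For LCM20 8 rose and none fell, with 10 at an unadjusted p under 0.05 and a median of 0.68. Over all genes with the filter, 32.3% rose for LCM800 and 27.0% for LCM20. The filter used the mean over all arrays, so a gene dim in sieved arrays passed more easily when high in microdissected arrays. This by itself favours rises among the 15. With no filter, all 27 were tested, and 17 rose for LCM800 and 9 for LCM20, with none lower in either. Of all genes in that fit, 28.1% rose for LCM800 and 22.0% for LCM20. With the filter, the count of rises for LCM800 was 8 of 15 without LCM800 replicates 1 to 3. The summed signal of the 27 genes was 3204 to 4045 in sieved arrays, 7726 to 10237 in LCM800 arrays and 4785 to 9032 in LCM20 arrays, and 6 of the 27 stayed under the pseudocount in every sieved array. Slc6a4, the serotonin transporter, which platelets also carry, read 200, 135, 93.7 and 136 in sieved arrays, 478, 433, 349, 406 and 406 in LCM800 arrays, and 490, 440, 707 and 183 in LCM20 arrays. It rose by 1.23 ± 0.27 (adjusted p = 0.0013) and 1.25 ± 0.28 (adjusted p = 0.00217). Slc18a2, the vesicular monoamine transporter, rose by 0.83 ± 0.27 for LCM800 (adjusted p = 0.0179), which did not pass once sieved replicate 3 was left out (0.66, adjusted p = 0.0643). Most of the 27 genes were dim. Among all 1952 tested genes with a mean sieved signal under 250, 56.4% rose for LCM800 and 41.1% for LCM20, beside 32 of 42 carriers (76.2%) and 21 of 42 (50.0%). Among genes with a mean sieved signal of 1000 or more, 47.6% of 1911 fell for LCM800 and 43.1% for LCM20, beside 56 of 72 carriers (77.8%) and 54 of 72 (75.0%). Genes were binned by their sieved signal, which is also a side of each difference, and filtered on the mean over all arrays. This choice by itself favours rises in the dim bin and falls in the bright bin, so the shares only describe the bins. The part of signal level in the carrier counts was not tested.

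**Figure D4:**
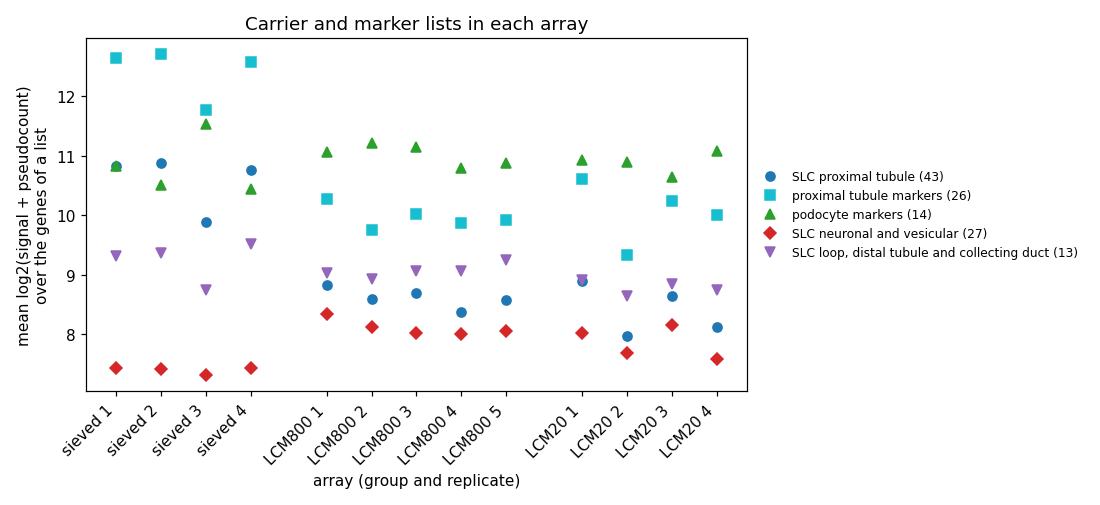
Mean log2(signal + pseudocount) over the genes of 5 lists in each array (x axis, by group and replicate), with the number of genes of each list in the key. The carriers and the markers of the proximal tubule are high in the 4 sieved arrays, with sieved replicate 3 the lowest of these, while the mean over the podocyte markers overlaps between groups and the neuronal and vesicular carriers are low in sieved arrays.

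In the Slc25 family, mostly carriers of the inner mitochondrial membrane, 10 of 27 tested fell and 2 rose for LCM800 (median -0.52). For LCM20 5 fell and 1 rose (median -0.45). Of all genes 19.8% fell and 32.3% rose for LCM800, and 18.5% and 27.0% for LCM20. Slc25a10, the dicarboxylate carrier, which is abundant in kidney cortex, fell from 2922, 3103, 1252 and 3001 to 62.1 to 448 and 123 to 257, with differences of -3.11 ± 0.35 (limma, adjusted p = 5.86e-06) and -3.42 ± 0.37 (adjusted p = 5.87e-06). The ADP/ATP carriers Slc25a4 and Slc25a5 exchange nucleotides across this membrane in every cell. Slc25a5 read 7992, 8632, 5845 and 7782 in sieved arrays, 726, 662, 1241, 3905 and 3762 in LCM800 arrays, and 5559, 2924, 2716 and 3448 in LCM20 arrays. LCM800 replicates 1 to 3 were low, and replicates 4 and 5 lay within the LCM20 range. Slc25a5 fell, with a difference of -2.21 ± 0.46 for LCM800 (adjusted p = 0.00097) and at -0.95 (adjusted p = 0.0186) without replicates 1 to 3, and its value for LCM20 was -1.08 ± 0.48 (adjusted p = 0.0805). Slc25a4 read 1862, 2140, 2506 and 2015 in sieved arrays, 30.3, 354, 541, 1048 and 547 in LCM800 arrays, and 826, 1904, 940 and 1695 in LCM20 arrays. It fell, with a difference of -2.31 ± 0.50 for LCM800 (adjusted p = 0.00139) and of -1.40 without replicates 1 to 3 (adjusted p = 0.00554), and had a value of -0.72 ± 0.53 for LCM20 (adjusted p = 0.28). Slc25a29, a carrier of basic amino acids, was the largest mitochondrial rise, from 595, 639, 611 and 623 to 2692, 2980, 2038, 939 and 915 and to 998, 1489, 1744 and 2229. The rise was 1.38 ± 0.34 (adjusted p = 0.00313) and 1.25 ± 0.35 (adjusted p = 0.00975), and without LCM800 replicates 1 to 3 the former was 0.54 (adjusted p = 0.12).

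Metal carriers moved both ways, with 6 of 23 tested higher and 7 lower for LCM800, and 5 higher and 7 lower for LCM20. The shares over all genes were 32.3% higher and 19.8% lower for LCM800, and 27.0% and 18.5% for LCM20. Slc31a2, a copper carrier of endosomes and lysosomes, read 415, 328, 585 and 316 in sieved arrays, 859, 1105, 1479, 2244 and 2883 in LCM800 arrays, and 1556, 1868, 1456 and 2357 in LCM20 arrays. LCM800 replicate 5 was the highest of all arrays. Slc31a2 rose by 1.80 ± 0.31 (limma, adjusted p = 0.000205) and, with the largest rise for LCM20, by 1.99 ± 0.33 (adjusted p = 0.000185). Slc41a3, a magnesium carrier, rose from 153 to 221 in sieved arrays to 511 to 660 and 287 to 557, by 1.42 ± 0.20 (adjusted p = 2.94e-05) and 1.08 ± 0.21 (adjusted p = 0.000626). Zinc handling included falls: Slc39a8, which imports zinc and manganese, fell, with differences of -2.05 ± 0.37 and -1.71 ± 0.39 (adjusted p = 0.00035 and 0.00249), and Slc30a1, the zinc exporter of the plasma membrane, fell, with differences of -1.58 ± 0.25 and -1.85 ± 0.27 (adjusted p = 0.000108 and 5.99e-05).

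**Figure D5:**
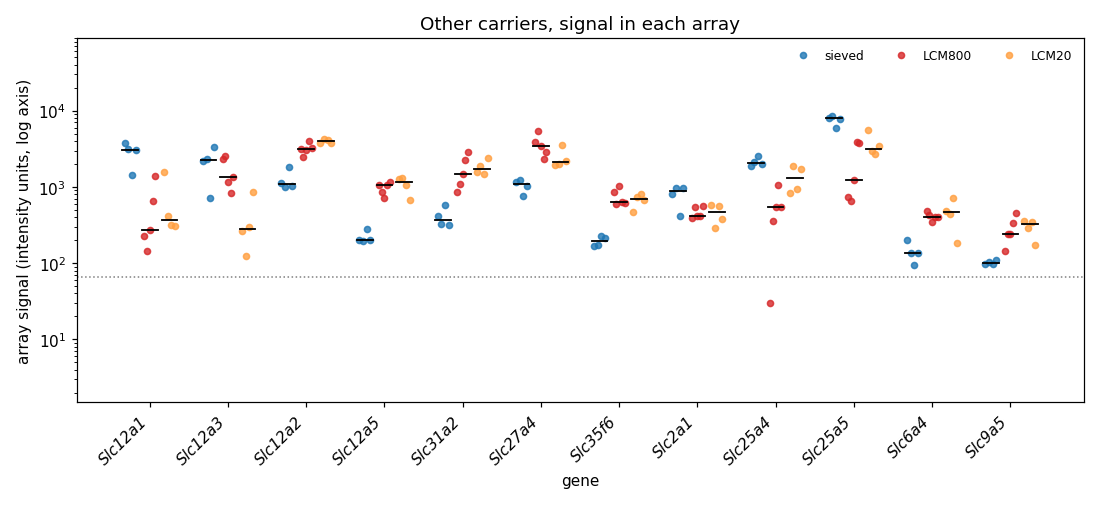
Signal of 12 further carriers in each array, in intensity units on a log axis, with 1 point per array, a bar at the median of each group (sieved n = 4, LCM800 n = 5, LCM20 n = 4) and a dotted line at the pseudocount of 65.3. Slc12a2, Slc12a5, Slc31a2, Slc27a4, Slc35f6 and Slc9a5 have every microdissected array above every sieved array, while Slc25a5 and Slc25a4 are spread within LCM800 and Slc12a3 in LCM20 overlaps with sieved replicate 3 alone.

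Nucleotide-sugar and related carriers, which supply the Golgi, had 5 of 13 tested genes higher and 3 lower for LCM800 (median 0.48), and 4 higher and 2 lower for LCM20 (median -0.05). Over all genes 32.3% rose and 19.8% fell for LCM800, and 27.0% and 18.5% for LCM20. The class counts lie near these shares. Slc35f6, a member of the family with a less settled role, rose from 169, 172, 227 and 215 to 852, 592, 1013, 627 and 613 and to 465, 736, 799 and 672, by 1.60 ± 0.21 (limma, adjusted p = 1.81e-05) and 1.47 ± 0.22 (adjusted p = 8.14e-05). Slc35e4 rose by 1.44 ± 0.27 (adjusted p = 0.000461) and 1.24 ± 0.29 (adjusted p = 0.00262), and by 0.95 (adjusted p = 0.0206) for LCM800 without its replicates 1 to 3. Slc33a1, the acetyl-CoA carrier of the endoplasmic reticulum, fell from 811 to 1721 in sieved arrays to 277 to 482 and 275 to 450, with differences of -1.61 ± 0.23 and -1.68 ± 0.24 (adjusted p = 4.52e-05 and 6.46e-05).

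Probe sets of the same gene did not always tell the same story. Of 31 carriers with at least 2 tested probe sets, all probe sets had the same call in 24 for LCM800 and in 22 for LCM20. Opposite calls were found for Slc44a1, a choline carrier, with 0.82 and -0.70 for LCM800 and 1.08 and -0.75 for LCM20. The other case was Slc35b1, named here after its values were seen, with 0.95 and -1.51 for LCM800. Control probe sets at both ends of a transcript also differed between the groups. The 3′ minus 5′ log2 signal of β-actin was 0.55 ± 0.02 (SD, n = 4) in sieved arrays, 2.77 ± 1.03 (SD, n = 5) in LCM800 arrays and 1.80 ± 0.45 (SD, n = 4) in LCM20 arrays. The exact two-sided permutation test gave p = 0.0159 for LCM800 against sieved (0.0476 after Benjamini-Hochberg adjustment over 9 tests) and p = 0.0286 for LCM20 against sieved (0.0643 adjusted), the smallest values these group sizes allow. The other controls did not all follow. Gapdh had 0.52 ± 0.15 in sieved, 1.22 ± 0.49 in LCM800 and 1.14 ± 1.38 in LCM20 arrays, with exact p = 0.0159 (0.0476 adjusted) and 0.543 (0.611 adjusted) in the same test. Hexokinase went the other way for LCM800, with 0.73 ± 0.14, 0.23 ± 0.33 and 0.44 ± 0.31, and exact p = 0.0159 (0.0476 adjusted) and 0.229 (0.343 adjusted). The part of probe position in the carrier values was not tested.

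The 43 carriers under the filter had low means over all arrays, and some of them had been high in sieved arrays only. In the limma fit with no filter 9 of them fell and 13 rose for LCM800, and 9 fell and 2 rose for LCM20. Over all 10411 genes of that fit, 17.5% fell and 28.1% rose for LCM800, and 16.4% fell and 22.0% rose for LCM20. Besides Slc2a2 the falls included Slc28a1, the sodium-nucleoside cotransporter for pyrimidines, at 360, 444, 109 and 466 in sieved arrays and 3.35 to 20.2 in microdissected ones. It fell by 2.26 for LCM800 (adjusted p = 8.81e-06) and is named here after its values were seen.

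Few genes of any kind were called between the microdissected groups. Between LCM20 and LCM800 no carrier passed the test in limma, 36 of 197 had an unadjusted p under 0.05, and over all genes 0.136% were called, 0.0742% higher and 0.0619% lower. The median difference was -0.16 over the carriers and -0.06 over all genes, and the ranges did not overlap for 10 carriers (5.08%) against 3.86% of all genes. Slc12a3 had the largest fold difference among the carriers named by the rule, -2.05 ± 0.47 (adjusted p = 0.0748), and Slc34a1 had -1.16 ± 0.33 (adjusted p = 0.116), with all LCM20 arrays below all LCM800 arrays. This depended on LCM800 replicates 4 and 5. Without replicate 4 the carriers called were 2 higher and 7 lower, and without replicate 5 they were 1 and 4. The shares over all genes in these fits are not given, so the counts are not set against other genes. Without both replicates, 14 carriers were higher and 23 lower, while over all genes 11.9% were called higher and 12.0% lower in that fit. In it Slc34a1 fell by 1.68 (adjusted p = 0.000674) and Slc12a3 fell by 2.36 (adjusted p = 0.00486), while Slc25a5 rose by 1.98 (adjusted p = 0.000445) and Slc25a4 by 2.20 (adjusted p = 0.00479). Without LCM800 replicates 1 to 3 no carrier was called, and 16 had an unadjusted p under 0.05.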

How the data were processed

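The 13 rat samples were each hybridised to 1 Affymetrix Rat 230A array. Per the submitters' processing notes the authors used MAS5, and the deposited file gives its intensity signals on a linear scale. The mean of each array with 2% of the values left out at either end was 500.1, so no further normalization was applied. Genome build and probe annotation of the authors are not given in the sources used here, and array number limits precision.

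Values were taken as log2(signal + 65.3), the pseudocount being the 20th percentile of all signals, so folds of dim genes are understated. The 57 control probe sets and the lowest 30% by mean log2 were left out, which kept 11106 of 15923. Symbols came from GEO's platform annotation. All 240 carriers matched the RefSeq gene table by gene ID, and 2 carrier probe sets with several symbols were left out. Groups were compared in limma 3.58.1 (R 4.3.3), with all 3 groups in 1 fit, an intensity trend and p-values adjusted by Benjamini-Hochberg across every probe set tested (threshold 0.05), after a test on simulated data. Errors of differences are standard errors.

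Named genes are, per comparison with sieved, the 6 largest falls and rises past the test with ranges that do not overlap, the largest fall and rise of each class, and a set of kidney carriers. Other genes are marked as named after their values were seen. The carriers, classes, lists and alternatives were chosen with earlier results of these data known. No label ties the replicate numbers to animals. Over 12 same-numbered pairs of arrays the correlation of deviations from group means ran from -0.244 to 0.233 and passed 0.1 in 3, so they were not used as pairs. The sample description mentions embryos and the extraction text anti-Thy1.1 rats, which other fields do not match.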

Additional observations from a re-analysis of the deposited data

Results flagged for a closer look

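Gaps within a group were looked at for 56 named carriers in 168 groups of 4 or 5 arrays, of which 16 held an array farther from the rest than Dixon's 95% limit, and chance gives about 1 group in 20. Values are log2(signal + pseudocount). Sieved replicate 3 accounted for 9 of the 16. It was the lowest sieved array for Slc13a1 (10.23, others 11.13 to 11.23), Slc23a1 (9.79, others 11.23 to 11.38), Slc25a10 (10.36, others 11.54 to 11.63), Slc27a2 (11.54, others 12.78 to 12.88), Slc2a4 (8.11, others 8.87 to 8.95), Slc34a1 (13.25, others 13.83 to 13.86), Slc4a4 (11.15, others 11.99 to 12.06) and Slco1a6 (10.64, others 11.87 to 11.97). It was the highest for Slc12a5, the neuronal potassium-chloride cotransporter (8.43, others 8.02 to 8.08).

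In the LCM20 group, replicate 1 was high for Slc12a1 of the thick ascending limb (10.66, others 8.55 to 8.91). Replicate 2 was low for the phosphate carrier Slc34a1 (10.10, others 10.89 to 10.95) and high for the glucose carrier Slc5a2 (7.49, others 6.97 to 7.06). Replicate 3 was high for the zinc exporter Slc30a1 (7.86, others 7.26 to 7.35). In the LCM800 group, replicate 1 was high for Slc17a1 (8.48, others 7.87 to 7.98) and Slc22a8 (10.21, others 9.46 to 9.64). Replicate 5 was low for the anion exchanger Slc4a1 (8.35, others 8.70 to 8.81).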

How the results depend on the processing

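Counts of carriers past the test changed by over 1.5 times in a few settings. With a filter that dropped the lowest 60%, fewer genes were tested, and 21 carriers were higher in LCM800 and 16 in LCM20 than in sieved. Between LCM20 and LCM800, array weights gave 5 higher and 9 lower carriers, and a fit with no intensity trend gave 1 lower. The shares over all genes in these fits are not given, and the cause was not tested. Without LCM800 replicates 4 and 5 there were 14 higher and 23 lower, and leaving out single arrays gave 0 to 2 higher and 0 to 7 lower. Against sieved, leaving out single arrays gave 41 to 51 higher and 67 to 83 lower for LCM800, and 27 to 38 higher and 72 to 82 lower for LCM20. With the replicate number as a block, although the numbers do not pair the arrays, the counts were 46 higher and 74 lower for LCM800, 30 and 79 for LCM20, and 0 and 0 between the microdissected groups. With array medians set equal, the median of all other genes for LCM800 against sieved moved from 0.23 to 0.12, with 44 carriers higher and 84 lower.

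For the named carriers, 2362 of 2435 values under alternatives kept their call, 49 lost it, 22 gained one and 2 reversed: Slc20a2 in LCM800 with the mean of all probe sets (-0.31, adjusted p = 0.207 in limma) and Slc44a1 in LCM20 with its dimmest probe set (-0.75, adjusted p = 0.04). Of 113 pairs of carrier and comparison, 86 had no call changed by any alternative. Carriers near background on microdissected arrays have differences limited by the pseudocount.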
